A study of Mus musculus with 9 samples.

Results

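RNA levels of 10 genes of the MHC class I antigen presentation pathway were compared between cultured mouse neural stem cells and a pair of tumour cell lines made from such cells. The genes were taken by symbol from the deposited gene counts: H2-K1, H2-D1, B2m, Nlrc5, Tap1, Tap2, Tapbp, Psmb8, Psmb9 and Psmb10, which are 10 of 47729 genes counted. They were chosen by name and pathway, not by a measured value. All 10 passed the filter on low counts, Psmb8 only through the neural stem cell libraries.

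Sequencing was done on 9 libraries, 3 cultures of each of 3 groups. NSC (cultures 1, 3 and 5) are primary neural stem cells of wild-type mice, taken from the subventricular zone, a stem cell layer that lines the lateral ventricle of the brain. LTR (cultures 1 to 3) are NSC-derived tumour cells with the genotype lgT/Ras. NF1 (cultures 1 to 3) are NSC-derived tumour cells with the genotype shp53, Nf1-/-, CDK4. All groups grew in the same stem cell culture conditions for up to 10 passages, and no source used here gives the strain or age of the mice. The cultures of a group are told apart only by number, so p-values measure the spread between cultures, and each line may come from 1 transformation.

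MHC class I molecules show fragments of a cell's own proteins to CD8 T cells, which can kill cells that display foreign or mutated peptides. The proteasome cuts proteins into peptides, the TAP transporter moves them into the endoplasmic reticulum, and a loading complex with tapasin fits them into a heavy chain bound to beta-2 microglobulin. Interferon gamma raises most genes of the pathway, in part through the transactivator NLRC5, and resting cells of the brain are known for low class I levels.

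Total counts ran from 28600479 (LTR 2) to 57231024 (NSC 3). The file headers place every NSC library on lane 1 and every tumour library on lane 7, so lane and transformation cannot be told apart. NF1 2 stood apart from the other tumour libraries, at -21.2 on the first principal component against 84.6 to 109 for the other 5. The stem cell marker Sox2 was present in all groups, at a mean of 338 CPM (counts scaled to library size with TMM factors) in NSC, 233 in LTR and 291 in NF1. Of 10 neural stem cell markers, 1 was higher (Pax6, 42.7 CPM against 23.3 in NSC) and 7 lower in LTR, and 0 were higher and 5 lower in NF1, where 20.9% and 13.1% of all tested genes were lower. The call of Pax6 was lost under 11 of the 17 alternatives, leaving out any 1 NSC or LTR library among them. Trp53, the target named by shp53, was higher in the libraries labelled NF1, at a mean of 196 CPM against 108 in NSC (log2 fold change 0.87 ± 0.20, adjusted p = 0.0141, edgeR quasi-likelihood test). Nf1 was 65.4 CPM there against 102 (-0.64 ± 0.35, adjusted p = 0.205), so neither gene was lower by the test with all libraries, and the group is named by its label from here on, as the libraries labelled NF1. Without NF1 2, Nf1 was lower there (-1.03, adjusted p = 0.0248), and the Trp53 call was lost without NSC 1, NSC 5, NF1 1 or NF1 3 (adjusted p = 0.0573 to 0.0635). LTR moved in the same directions. Without NF1 2, its Nf1 was also lower by edgeR (-0.77, adjusted p = 0.0412). Leaving out single libraries, the log2 fold change of Trp53 ran from 1.19 to 1.40 in LTR and from 0.76 to 1.04 in the libraries labelled NF1.

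Members of the class I pathway moved in both directions in the tumour groups. The light chain gene B2m, the heavy chain gene H2-D1 and the transactivator gene Nlrc5 were higher than in NSC, 3.00-fold, 3.27-fold and 6.70-fold in LTR. Both transporter genes, tapasin and the proteasome subunit Psmb8 were lower, from 2.68-fold for Tapbp to 12.6-fold for Psmb8. H2-K1, Psmb9 and Psmb10 did not pass the test. With the edgeR quasi-likelihood test over 15696 genes, 3 members were higher and 4 lower in LTR (7 of 10 called), where 35.9% of all tested genes were called, 14.9% higher and 20.9% lower. In the libraries labelled NF1 the same counts were 3 higher and 4 lower, where 23.1% of all genes were called, 10.1% higher and 13.1% lower. The median log2 fold change of the members was -0.54 in LTR and -0.68 in the libraries labelled NF1, against -0.06 and 0.0039 for all genes tested. Without a test, the libraries of LTR and NSC did not overlap for 3 members that were higher and 5 that were lower, where 59% of all tested genes did not overlap, 26.9% higher and 32% lower. In the libraries labelled NF1 the same counts were 3 and 4, where 42.3% of all tested genes did not overlap, 18.7% higher and 23.7% lower. Both comparisons use the same 3 NSC libraries. The counts were 3 higher and 4 lower as well without both NF1 2 and NSC 3, the libraries that stand apart, a setting chosen after seeing the data. In bulk RNA, fewer cells of a type and less RNA per cell cannot be told apart.

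**Figure D1:**
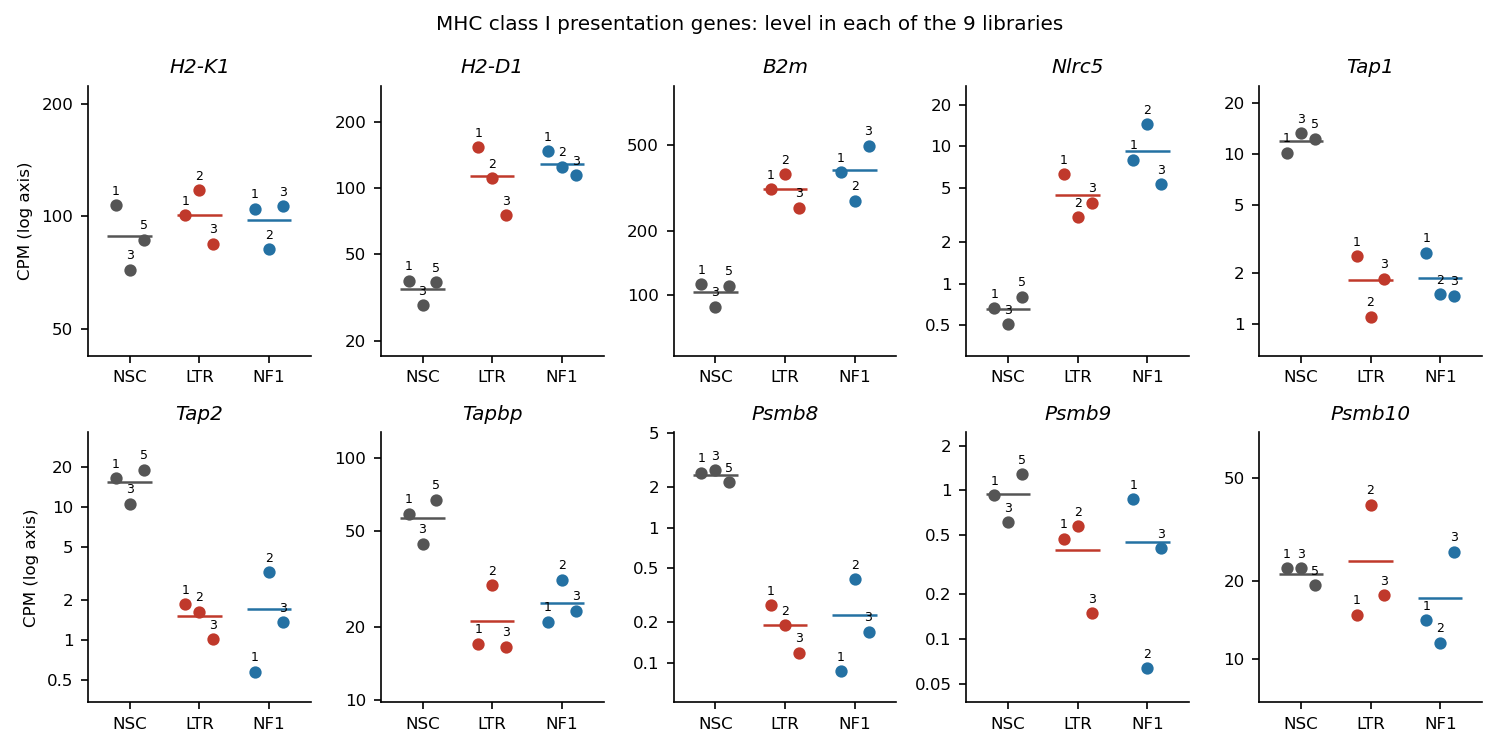
Level of each of the 10 genes in the 9 libraries, in CPM on a log axis whose range differs between panels. Points are libraries with their culture number and lines are group means. H2-D1, B2m and Nlrc5 lie above NSC in every tumour library, and Tap1, Tap2, Tapbp and Psmb8 below it.

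**Figure D2:**
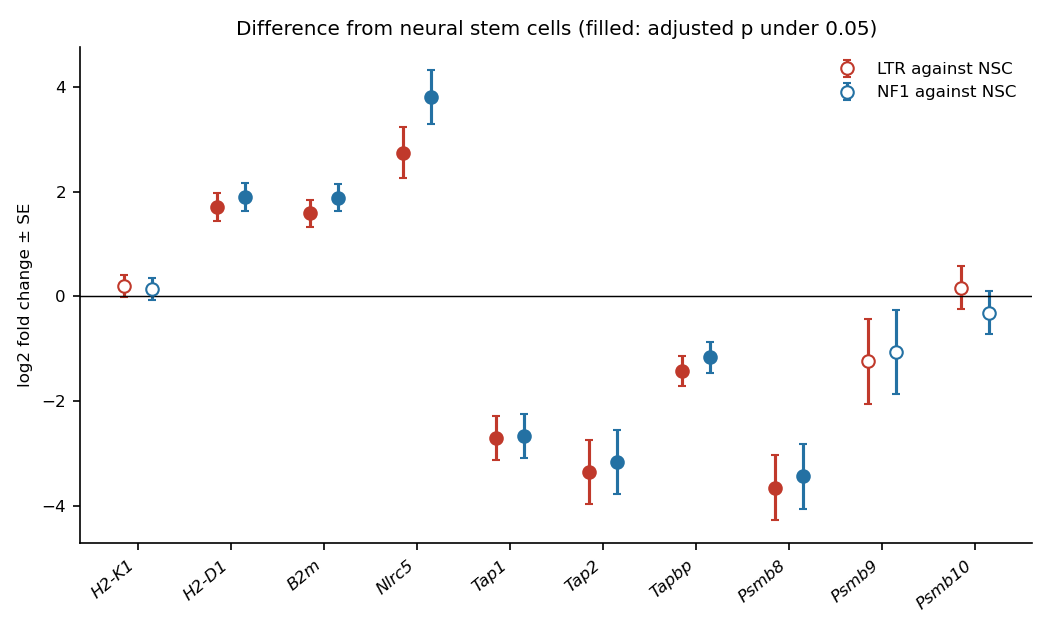
Log2 fold change against NSC with its standard error for LTR (red) and the libraries labelled NF1 (blue). Filled points have an adjusted p under 0.05. Both lines share their sign for 9 of the 10 genes, the exception being Psmb10, and filled points lie at 1.58 or above and at -1.17 or below.

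Heavy chains carry the peptide groove. H2-K1 (ENSMUSG00000061232, GRCm38 chromosome 17, 33996017 to 34000347, minus strand) encodes the heavy chain H2-K, 1 of the classical class I proteins of the mouse. It measured 107, 72.0 and 86.7 CPM in NSC 1, 3 and 5, 100.9, 118 and 84.5 in LTR 1, 2 and 3, and 105, 81.8 and 107 in NF1 1, 2 and 3. All 3 groups overlapped. Neither difference passed, with a log2 fold change of 0.19 ± 0.21 in LTR (adjusted p = 0.505) and 0.14 ± 0.21 in the libraries labelled NF1 (adjusted p = 0.650).

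H2-D1 (ENSMUSG00000073411, chromosome 17, 35262730 to 35267499, plus strand) encodes the classical heavy chain H2-D. It measured 37.6, 29.02 and 37.0 CPM in NSC 1, 3 and 5, 154, 110.5 and 74.8 in LTR 1, 2 and 3, and 147, 125 and 114 in NF1 1, 2 and 3. The lowest tumour library, LTR 3, lay above the highest NSC library. H2-D1 rose, with a log2 fold change of 1.71 ± 0.27 in LTR (adjusted p = 0.00235) and 1.895 ± 0.268 in the libraries labelled NF1 (adjusted p = 0.00236, 3.72-fold). Over 17 alternative settings the adjusted p of H2-D1 stayed under 0.05 in both comparisons, at most 0.0112 in LTR and 0.0126 in NF1.

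The balance of both heavy chains thus differed by group. Per exon length, H2-K1 was at 206% to 250% of H2-D1 in the NSC libraries, 57.6% to 99.2% in LTR and 57.5% to 81.9% in the libraries labelled NF1. Every NSC library had more H2-K1 than H2-D1 and every tumour library had less. This ratio was added after the values were seen and has no test. The transcripts of the pair are alike: 12.8% of the 50-base words in H2-D1 transcripts (331 of 2591) and 9.63% in H2-K1 transcripts (333 of 3457) occur in transcripts of another gene, mostly each other and the H2-Q genes. No source used here says how such reads were counted, so part of either value is uncertain.

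B2m (ENSMUSG00000060802, chromosome 2, 122147686 to 122153083, plus strand) encodes beta-2 microglobulin, the light chain that all classical class I heavy chains need to fold. It measured 112, 88.5 and 110.5 CPM in NSC 1, 3 and 5, 312, 366 and 255 in LTR 1, 2 and 3, and 374, 276 and 497 in NF1 1, 2 and 3. Every tumour library had more than 2 times the highest NSC library. B2m rose, with a log2 fold change of 1.58 ± 0.25 in LTR (adjusted p = 0.00256) and 1.88 ± 0.26 in the libraries labelled NF1 (adjusted p = 0.00209, 3.69-fold). Per kilobase, B2m stood at 2.56, 2.88 and 2.93 times the sum of H2-K1 and H2-D1 in NSC 1, 3 and 5. The same ratio was 3.86, 5.14 and 5.14 in LTR 1, 2 and 3, and 4.70, 4.21 and 7.18 in NF1 1, 2 and 3. All tumour libraries lay above all NSC libraries in this ratio, which was also chosen after the values were seen. B2m overlaps Patl2 on the other strand, and the library kit does not mark strand.

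Class I promoters are known for a module bound by RFX, CREB/ATF and NF-Y factors, on which NLRC5 acts, and for an upstream element read by NF-kappa-B and interferon regulatory factors. Promoter sequences were taken from RefSeq (GRCm38.p6), whose table of 32851 promoters of 300 bases matched 8 of the 10 genes. Nlrc5 and Tap2 had no entry. The 30 bases that start with TGACG, the core of a CREB/ATF element, are shown for the 4 genes in which the light and heavy chains can be compared with a transporter gene. Capitals mark TGACG and ATTGG, the reverse of the CCAAT box read by NF-Y.
H2-K1: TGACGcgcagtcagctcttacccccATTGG
H2-D1: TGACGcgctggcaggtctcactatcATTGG
B2m: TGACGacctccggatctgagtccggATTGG
Tap1: TGACGacagagggtcctgccctcaatctgg
These stretches lie at chr17:34000359-34000388 (minus strand), chr17:35262993-35263022, chr2:122147609-122147638 and chr17:34187470-34187499. They begin at positions -41, -101, -78 and -86 from the RefSeq start. For H2-K1 2 starts are listed, and from the other one the position is -55. The H2-D1 stretch lies upstream of its RefSeq start but within the GENCODE gene bounds, which begin at 35262730. In the first 3 stretches TGACG is followed after 20 bases by ATTGG, and in Tap1 it is not.

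On either strand, TGACG occurred in 20.8% of all promoters in the table and in promoters of 5 of the 8 member genes. H2-K1 has 2 promoters in the table, and members are counted by gene. ATTGG occurred in 37.4% of all and in 6 of the 8. The promoters of Tap1 and Psmb9 overlap, so the same TGACG and the same ATTGG are counted for both genes. The pair at that 20-base spacing occurred in 31 of the 32851 promoters (0.0944%), from 27 genes, and among them were B2m, H2-D1, H2-K1 and H2-M3. H2-K1, whose level did not pass the test, and H2-D1 and B2m, which were higher, thus all hold the spaced pair. The spacing was read off these sequences and then counted, so the share is a description. A match is not a shown binding site.

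The upstream element is shown because it also joins H2-K1 and H2-D1, the pair whose levels parted. Capitals mark matches of GGGGATNCC, a sequence of NF-kappa-B type in which N is any base, and TTTCACTTC, which reads GAANNGAAA on the other strand, a core of interferon response elements.
H2-K1: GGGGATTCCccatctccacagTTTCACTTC
H2-D1: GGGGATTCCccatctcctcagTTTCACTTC
They lie at chr17:34000429-34000458 (minus strand) and chr17:35262923-35262952 and differ in 1 of 30 bases, while the TGACG stretches of the same genes differ in 7 of 30. This H2-D1 stretch too lies upstream of the RefSeq start and within the GENCODE gene bounds. GGGGATNCC occurred on either strand in 339 promoters of the table (1.03%), and 2 of the 8 member genes had it, H2-K1 and H2-D1. GAANNGAAA occurred in 7.52% of all promoters and in the same pair of members. The interferon element TTCNNNGAA occurred in 8.3% of all promoters and, among the members, in Psmb8.

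The B2m promoter is shown beside them because it holds other letters of the same kinds. Capitals mark GAAANNGAA, a further core of interferon response elements, and GAAAGTCCC, which reads GGGACNTTC on the other strand, a form of NF-kappa-B type. Both patterns were chosen after the sequence was seen.
B2m: GAAACTGAAaatggGAAAGTCCCtttgtaa
This stretch lies at chr2:122147548-122147577 and begins at position -139 from the RefSeq start. GAAANNGAA occurred on either strand in 8.56% of all promoters and GGGACNTTC in 0.901%, and among the 8 members both were in B2m.

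The 150 bases next to the start of H2-K1 and B2m show these letters in place, H2-K1 at chr17:34000348-34000497 (minus strand) and B2m at chr2:122147536-122147685. The capitals are the same as above.
H2-K1: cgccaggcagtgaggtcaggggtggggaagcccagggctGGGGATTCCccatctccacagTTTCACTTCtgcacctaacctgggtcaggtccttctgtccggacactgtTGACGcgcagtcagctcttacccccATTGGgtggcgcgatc
B2m: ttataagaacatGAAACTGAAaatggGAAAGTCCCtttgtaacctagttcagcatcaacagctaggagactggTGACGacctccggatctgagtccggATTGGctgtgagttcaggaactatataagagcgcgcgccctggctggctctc
Each window holds 1 match of interferon type and 1 of NF-kappa-B type among the patterns searched, upstream of the spaced pair TGACG and ATTGG, in the opposite order and with different letters.

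Nlrc5 (ENSMUSG00000074151, chromosome 8, 94434356 to 94527272, plus strand) encodes the NOD-like receptor that acts as the transactivator of class I genes. It measured 0.662, 0.505 and 0.804 CPM in NSC 1, 3 and 5, 6.29, 3.05 and 3.88 in LTR 1, 2 and 3, and 7.97, 14.5 and 5.29 in NF1 1, 2 and 3. These values rest on 25 to 30 counts in an NSC library, 80 to 212 in LTR and 155 to 452 in NF1. Each tumour library lay above each NSC library, with NF1 2 the highest. Nlrc5 rose, with a log2 fold change of 2.74 ± 0.50 in LTR (adjusted p = 0.00415) and 3.81 ± 0.52 in the libraries labelled NF1 (adjusted p = 0.00206, 14.0-fold). Without NF1 2 the second value was 3.35. Nlrc5 thus had the largest rise of the 10 genes in both comparisons, while Tap1, Tap2 and Psmb8, which NLRC5 is known to act on or which share its induction by interferon gamma, were lower. Nlrc5 overlaps 9330175E14Rik on the other strand, which measured 0.0774 CPM in NSC, 0.268 in LTR and 0.466 in NF1.

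The transporter genes fell together. Tap1 (ENSMUSG00000037321, chromosome 17, 34187553 to 34197225, plus strand) encodes 1 chain of the TAP peptide transporter. It measured 10.2, 13.2 and 12.3 CPM in NSC 1, 3 and 5, 2.52, 1.11 and 1.85 in LTR 1, 2 and 3, and 2.64, 1.505 and 1.47 in NF1 1, 2 and 3. Every tumour library lay far below the lowest NSC library, and the tumour groups overlapped. Tap1 fell, with a log2 fold change of -2.70 ± 0.43 in LTR (adjusted p = 0.00240, 6.51-fold lower) and -2.67 ± 0.42 in the libraries labelled NF1 (adjusted p = 0.00353, 6.37-fold lower).

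Tap2 (ENSMUSG00000024339, chromosome 17, 34203527 to 34216321, plus strand) encodes the other TAP chain, without which the transporter does not work. It measured 16.5, 10.6 and 19.1 CPM in NSC 1, 3 and 5, 1.87, 1.64 and 1.02 in LTR 1, 2 and 3, and 0.580, 3.23 and 1.37 in NF1 1, 2 and 3. The groups did not overlap, and NF1 2 was the highest tumour library. Tap2 fell, with a log2 fold change of -3.35 ± 0.62 in LTR (adjusted p = 0.00438, 10.2-fold lower) and -3.16 ± 0.61 in the libraries labelled NF1 (adjusted p = 0.00753, 8.94-fold lower). Without NF1 2 it was -3.98. Tap2 overlaps Gm20496 and Gm15821 on the other strand.

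Tapbp (ENSMUSG00000024308, chromosome 17, 33915899 to 33929292, plus strand) encodes tapasin, which bridges TAP and the empty heavy chain and edits its peptide. It measured 59.1, 44.5 and 67.4 CPM in NSC 1, 3 and 5, 17.1, 29.9 and 16.7 in LTR 1, 2 and 3, and 21.1, 31.5 and 23.4 in NF1 1, 2 and 3. All tumour libraries lay below all NSC libraries, by less than for the TAP genes. Tapbp fell, with a log2 fold change of -1.42 ± 0.29 in LTR (adjusted p = 0.00698, 2.68-fold lower) and -1.17 ± 0.29 in the libraries labelled NF1 (adjusted p = 0.0210, 2.25-fold lower). The Tapbp call in NF1 was lost without NSC 1 (-1.14, adjusted p = 0.0687), NSC 5 (-1.03, 0.0800) or NF1 1 (-1.04, 0.0788), and over all settings its adjusted p ran from 0.00157 to 0.0800. Tapbp overlaps Zbtb22 on the same strand, and 2.87% of its 50-base words occur in other genes.

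The inducible proteasome subunits replace the constitutive catalytic subunits after interferon and change which peptides are cut. Psmb8 (ENSMUSG00000024338, chromosome 17, 34197721 to 34201454, plus strand) encodes the inducible counterpart of Psmb5. It measured 2.54, 2.65 and 2.17 CPM in NSC 1, 3 and 5 (96, 147 and 81 counts), 0.267, 0.191 and 0.119 in LTR 1, 2 and 3 (9, 5 and 4 counts), and 0.0869, 0.416 and 0.171 in NF1 1, 2 and 3 (3, 13 and 5 counts). It was low in every tumour library, with NF1 2 the highest of them. Psmb8 passed the low-count filter only through NSC, the group where it is high. Its place among the 4 lower members and its fold change rest on 3 to 13 counts in a tumour library. Psmb8 fell, with a log2 fold change of -3.65 ± 0.63 in LTR (adjusted p = 0.00339) and -3.44 ± 0.62 in the libraries labelled NF1 (adjusted p = 0.00567, 10.8-fold lower). Without NF1 2 the second value was -4.23.

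Psmb9 (ENSMUSG00000096727, chromosome 17, 34181987 to 34187764, minus strand) encodes the inducible counterpart of Psmb6. It measured 0.926, 0.614 and 1.29 CPM in NSC 1, 3 and 5, 0.474, 0.572 and 0.149 in LTR 1, 2 and 3, and 0.869, 0.0640 and 0.410 in NF1 1, 2 and 3. NSC and LTR did not overlap, as for 32% of all tested genes in that direction, while NF1 1 lay within the NSC range. Neither difference passed, at -1.24 ± 0.81 in LTR (adjusted p = 0.254) and -1.06 ± 0.80 in the libraries labelled NF1 (adjusted p = 0.359). The values rest on 34 to 48 counts in NSC libraries, 5 to 16 in LTR and 2 to 30 in NF1. Psmb9 overlaps Tap1 head to head, with RefSeq starts 225 bases apart, and reads of the shared stretch cannot be assigned without strand.

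Psmb10 (ENSMUSG00000031897, chromosome 8, 105935735 to 105938444, minus strand) encodes the inducible counterpart of Psmb7. It measured 22.4, 22.5 and 19.3 CPM in NSC 1, 3 and 5, 14.8, 39.5 and 17.7 in LTR 1, 2 and 3, and 14.1, 11.6 and 26.01 in NF1 1, 2 and 3. The tumour groups spread to both sides of the narrow NSC range. Neither difference passed, with a log2 fold change of 0.16 ± 0.41 in LTR (adjusted p = 0.775) and -0.31 ± 0.42 in the libraries labelled NF1 (adjusted p = 0.610), and neither sign held under all settings.

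Each inducible subunit was next set against the constitutive subunit whose place it takes, per exon length and within a library, which cancels library size. Psmb8 stood at 1.07%, 0.409% and 0.932% of Psmb5 in NSC 1, 3 and 5, 0.0875%, 0.0302% and 0.0329% in LTR 1, 2 and 3, and 0.0253%, 0.159% and 0.0350% in NF1 1, 2 and 3. Psmb9 stood at 0.130% to 0.410% of Psmb6 in NSC, from 0.0280% to 0.106% in LTR and from 0.0210% to 0.191% in NF1. Psmb10 stood at 19.5% to 30.1% of Psmb7 in NSC, from 10.9% to 16.3% in LTR and from 8.56% to 15.1% in NF1. Of the 6 comparisons with NSC, 5 had no overlap, the exception being Psmb9 over Psmb6 in NF1, where NF1 1 lay above NSC 3. No share over all genes was computed for such ratios. For the level of single genes, 59% of all tested genes did not overlap NSC in LTR and 42.3% in NF1.

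The mean log2 ratio differed from NSC by -3.95, -2.09 and -0.97 in LTR for Psmb8, Psmb9 and Psmb10 over their counterparts, and by -3.70, -1.93 and -1.12 in the libraries labelled NF1. In exact two-sided permutation tests of 3 against 3 libraries, p was 0.1 in 5 of these 6 comparisons, the smallest value this design allows, and 0.2 for Psmb9 over Psmb6 in NF1. Adjusted over the 9 tests by Benjamini-Hochberg, these were 0.18 and 0.3. Psmb10 is the subunit in which level and ratio differ: its own level overlapped NSC in both lines, and its share of Psmb7 did not. Without single libraries, Psmb7 ran from 0.83 to 1.39 (log2 fold change against NSC) in LTR and from 0.46 to 1.18 in NF1. Psmb10 ran from -0.28 to 0.47 and from -0.75 to -0.08 in turn. Its lower ratio is thus not by itself a fall of Psmb10.

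**Figure D3:**
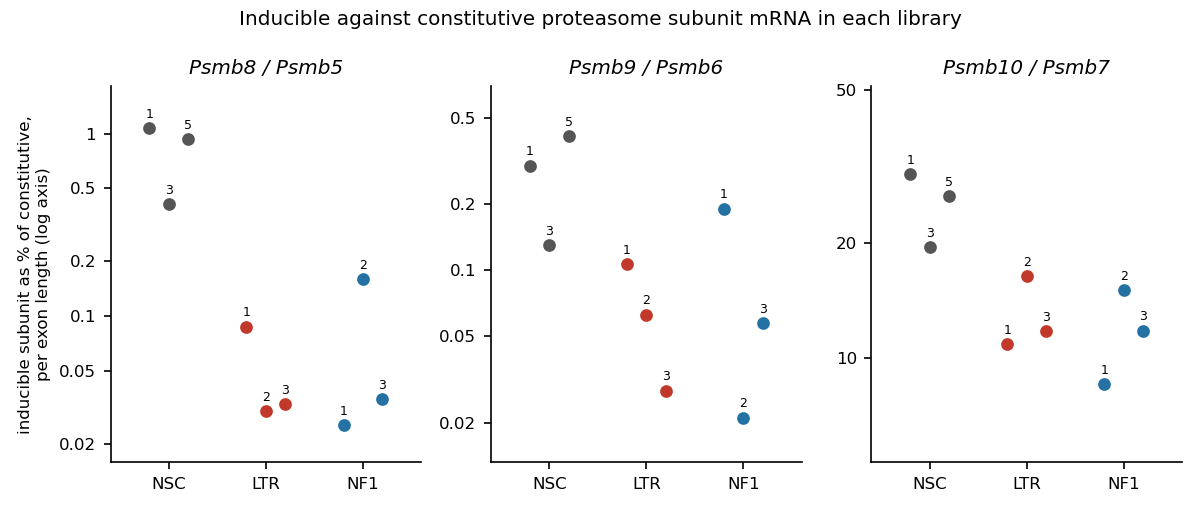
Inducible subunit as percent of its constitutive counterpart, per exon length, in each library (log axes of different range, points numbered by culture). NSC libraries lie above all tumour libraries for Psmb8 over Psmb5 and Psmb10 over Psmb7, and NF1 1 lies within the NSC range for Psmb9 over Psmb6.

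The tumour groups were also compared with each other, which tests whether the differences from NSC differ between them. With the edgeR quasi-likelihood test 0 of the 10 genes were called, where 0% of all 15696 genes were. At an unadjusted p under 0.05 there was 1 gene, Nlrc5 (1.07 ± 0.46 higher in the libraries labelled NF1, adjusted p = 0.483, with 0.238 to 0.872 over the alternatives), and DESeq2 also called 0 of the 10. The libraries of both groups overlapped for all 10 genes, where 12.5% of all tested genes did not overlap, 7.21% higher and 5.24% lower in NF1. The other 9 differences lay between -0.48 (Psmb10) and 0.30 (B2m), with standard errors from 0.21 to 0.82, and do not show that the lines are alike.

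Ranked by CPM per kilobase of exon, B2m was the most abundant member in every group, at 121 in NSC, 362 in LTR and 445 in the libraries labelled NF1. H2-K1 came next in NSC at 30.2, then Tapbp at 15.7, H2-D1 at 13.4 and Psmb10 at 12.5, whose libraries overlapped with their neighbours in that order. Below them stood Tap2 at 4.08, Tap1 at 2.18, Psmb8 at 0.726, Psmb9 at 0.257 and Nlrc5 last at 0.0774, each step without overlap. In LTR, H2-D1 was second at 43.8 and overlapped H2-K1 at 34.4, and Psmb10 (14.1) and Tapbp (5.85) followed without overlap. Nlrc5 moved from last to sixth at 0.519 and overlapped Tap2 at 0.399, which overlapped Tap1 at 0.333. Psmb9 at 0.109 and Psmb8 at 0.0569 came last and overlapped. The order of the means in the libraries labelled NF1 was that of LTR, with H2-D1 at 49.8 above H2-K1 at 33.3 without overlap, Psmb10 at 10.1 overlapping Tapbp at 6.99, and Nlrc5 at 1.09.

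By the root mean square difference of log2 CPM profiles centred over the 9 libraries, the genes most like H2-K1 among 10336 candidates were Tonsl (0.109), Pars2 (0.126) and Pcbp4 (0.133). Those most like B2m were Clic1 (0.230), Eif4ebp1 (0.232) and Cstb (0.250). H2-D1 was the member closest to B2m, at 0.316. Those most like Tap1 were Plcb1 (0.302), Usp51 (0.346) and Fbn1 (0.350). Among members, Psmb8 (0.873), Tapbp (0.927) and Tap2 (0.943) were the closest to Tap1.

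Of the 10 genes, 6 lie in a stretch of 300.4 kilobases of chromosome 17 from Tapbp to Tap2, in the MHC. This stretch was chosen after the values were seen. It holds 31 other genes, of which 17 were tested. None of these 17 was higher and 2 were lower in LTR by edgeR, Vps52 (-0.66 ± 0.17, adjusted p = 0.0165) and H2-Ke6 (-2.10 ± 0.57, adjusted p = 0.0204). In the libraries labelled NF1, 0 were higher and 2 lower, Vps52 (-0.64 ± 0.17, adjusted p = 0.0262) and Gm19412 (-1.99 ± 0.57, adjusted p = 0.0336), which overlaps Tapbp on the other strand. The median of the 17 was -0.66 in LTR and -0.31 in NF1. Over all tested genes 14.9% were higher and 20.9% lower in LTR, and 10.1% and 13.1% in NF1. Each of these calls was lost without any 1 of several libraries (adjusted p up to 0.0953 for Vps52 and 0.0710 for H2-Ke6 in LTR, and up to 0.1005 for Vps52 and 0.127 for Gm19412 in NF1), and H2-Ke6 passed in NF1 without NF1 2 (0.0192). Tap1, Psmb8 and Tap2 lie side by side at the end of this stretch and had the lowest log2 fold changes in it.

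**Figure D4:**
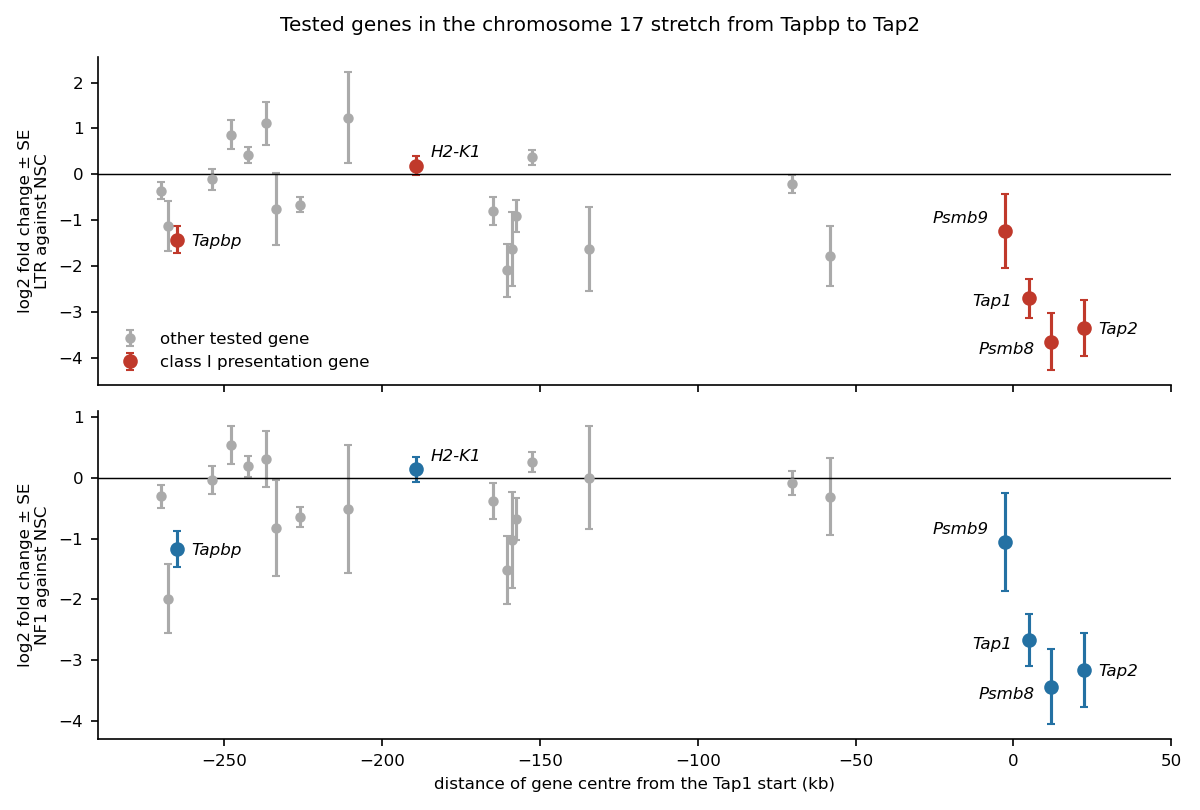
Log2 fold change with its standard error for the tested genes between Tapbp and Tap2 on chromosome 17, by distance of the gene centre from the Tap1 start in kilobases. The upper panel is LTR and the lower one the libraries labelled NF1. Tap1, Psmb8 and Tap2 are the lowest points in both panels, and H2-K1 lies at 0.19 and 0.14.

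None of the other heavy chains and class I-like molecules passed as higher by edgeR with all 9 libraries. Of 21 listed, 12 were tested, and in each line 0 were higher and 2 lower, with a median of 0.11 in LTR and -0.17 in NF1. Among all tested genes 14.9% were higher and 20.9% lower in LTR, and 10.1% and 13.1% in NF1. The counts that follow are again of the 12. By DESeq2, 1 was higher in LTR and 0 in NF1, and the edgeR count at an unadjusted p under 0.05 was 3 in each, either direction. Hfe, a class I-like protein of iron sensing that also binds beta-2 microglobulin, measured 12.4, 15.3 and 11.5 CPM in NSC 1, 3 and 5 and 1.11 to 1.63 in LTR (-3.19 ± 0.45, adjusted p = 0.00166). It measured 1.62, 3.94 and 1.67 CPM in NF1 1, 2 and 3 (-2.44 ± 0.43, adjusted p = 0.00545). H2-T22, a ligand of some gamma delta T cells, was also lower (-2.26 ± 0.61, adjusted p = 0.0195 in LTR; -2.23 ± 0.61, adjusted p = 0.0289 in NF1), with NSC 3 at 15.9 CPM against 3.76 and 3.43 in NSC 1 and 5. Without NSC 3 its difference shrank to -1.04 in both and the calls were lost (adjusted p = 0.0681 and 0.0857), as they were without LTR 3 (0.0783 and 0.0511), without LTR 2 in LTR (0.0696) and without NF1 1 or NF1 3 in NF1 (0.0798 and 0.0840). H2-Q4, a further heavy chain, measured 8.10 to 9.47 CPM in NSC, 14.7 to 18.0 in LTR and 19.3, 8.45 and 15.1 in NF1 1, 2 and 3, so that LTR did not overlap NSC. It did not pass (0.88 ± 0.31, adjusted p = 0.0533 in LTR; 0.73 ± 0.31, adjusted p = 0.120 in NF1), but did in both without NF1 2 (adjusted p = 0.00786 and 0.00796), and in LTR also by DESeq2 (0.0217), with only the 6 libraries compared (0.00884) and without NF1 1 (0.0470).

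Of 11 genes of peptide loading and trimming besides the members, 1 was higher and 5 lower in LTR (median -0.42), and 1 was higher and 2 lower in the libraries labelled NF1 (median -0.19). The shares over all tested genes were 14.9% higher and 20.9% lower in LTR, and 10.1% and 13.1% in NF1. Erap1, the aminopeptidase that trims peptides in the endoplasmic reticulum, measured 36.5 to 41.1 CPM in NSC, 11.0 to 15.9 in LTR (-1.47 ± 0.22, adjusted p = 0.00185) and 13.9 to 16.4 in NF1 (-1.41 ± 0.21, adjusted p = 0.00309). Lnpep, an aminopeptidase of endosomes, was lower as well (-2.34 ± 0.43, adjusted p = 0.00444 in LTR; -2.09 ± 0.43, adjusted p = 0.00949 in NF1). Thop1, a cytosolic peptidase that degrades such peptides, was higher in LTR (1.21 ± 0.22, adjusted p = 0.00430) and did not pass in NF1 (0.47 ± 0.22, adjusted p = 0.142), where it did without NF1 2 (0.68, adjusted p = 0.0129). Pdia3, the disulfide isomerase paired with tapasin, was higher in NF1 (1.18 ± 0.25, adjusted p = 0.0102) and did not pass in LTR (0.51 ± 0.24, adjusted p = 0.124). Calr, the chaperone calreticulin, passed in neither (0.08 ± 0.30 in LTR, adjusted p = 0.855; 0.88 ± 0.30 in NF1, adjusted p = 0.0634), but did in NF1 without LTR 2 (0.96, adjusted p = 0.0346). Without LTR 1 the count of lower genes in LTR was 2, and without NF1 2 that in NF1 was 4.

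The constitutive proteasome leaned the other way from Psmb8. Of 15 core genes, with a median of 0.99 in LTR, 6 were higher and 0 lower there, where 14.9% of all tested genes were higher and 20.9% lower. In the libraries labelled NF1, where 10.1% of all tested genes were higher and 13.1% lower, 0 of the 15 were called in either direction by edgeR. Of the 15, 7 reached an unadjusted p under 0.05 and DESeq2 called 3 higher, with a median of 0.79. These counts rested on single libraries: in LTR they fell to 0 without NSC 1, NSC 5 or LTR 2, to 1 without LTR 3 and to 3 without NF1 1, and rose to 10 without NF1 2, while in NF1 the count was 10 without NF1 2. Without both NF1 2 and NSC 3 they were 15 of 15 in LTR and 12 of 15 in NF1. Psma1, a structural subunit, measured 116, 144 and 115 CPM in NSC 1, 3 and 5, 278 to 439 in LTR, and 301, 128 and 465 in NF1 1, 2 and 3, so that NF1 2 lay within NSC. Its log2 fold change was 1.47 ± 0.41 in LTR (adjusted p = 0.0213) and 1.25 ± 0.40 in NF1 (adjusted p = 0.0508). The catalytic subunits Psmb5 (0.22 ± 0.45, adjusted p = 0.726), Psmb6 (0.79 ± 0.37, adjusted p = 0.119) and Psmb7 (1.01 ± 0.39, adjusted p = 0.0704) did not pass in LTR, nor in NF1 (-0.03, 0.43 and 0.82). Without NF1 2, Psmb7 passed in both (adjusted p = 0.0149 and 0.0146). Of 4 proteasome activator genes, 1 was higher in LTR (Psme3, 0.66 ± 0.19, adjusted p = 0.0251) and 1 in NF1 (Psme4, 0.99 ± 0.30, adjusted p = 0.0409), and both calls were lost without NSC 1 (adjusted p = 0.110 and 0.123) and without NSC 5 (0.1005 and 0.132), that of Psme3 also without LTR 3 (0.0555) and that of Psme4 without LTR 1 (0.0509), NF1 1 (0.0978) or NF1 2 (0.0596).

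Of 30 regulators of class I genes, 28 were tested: 4 were higher and 3 lower in LTR (median -0.08), and 3 higher and 2 lower in the libraries labelled NF1 (median 0.06). For all tested genes the shares were 14.9% higher and 20.9% lower in LTR, and 10.1% and 13.1% in NF1. Socs1, an inhibitor of interferon receptor signalling, measured 3.94, 1.66 and 3.51 CPM in NSC 1, 3 and 5, 6.52, 20.9 and 18.1 in LTR 1, 2 and 3, and 22.7, 34.4 and 26.1 in NF1 1, 2 and 3. It was above NSC in all tumour libraries (2.32 ± 0.48, adjusted p = 0.00714 in LTR; 3.19 ± 0.50, adjusted p = 0.00340 in NF1).

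Stat3, which carries signals of the interleukin-6 family, was lower (-2.54 ± 0.36, adjusted p = 0.00172 in LTR; -1.54 ± 0.35, adjusted p = 0.0143 in NF1), the call in NF1 being lost without NSC 1 (0.0503) or NF1 1 (0.0601). Irf1, an activator of Tap1, Psmb9 and the class I genes, did not pass (0.33 ± 0.42, adjusted p = 0.553 in LTR; 0.06 ± 0.42, adjusted p = 0.924 in NF1), and neither did Rfx5 of the promoter complex (-0.10 ± 0.29, adjusted p = 0.812; -0.28 ± 0.29, adjusted p = 0.498). Eed, a subunit of the repressive complex PRC2, was higher in LTR (1.05 ± 0.23, adjusted p = 0.00882) and in NF1 (0.76 ± 0.23, adjusted p = 0.0421). Ezh2, the PRC2 methyltransferase, was higher in NF1 (0.64 ± 0.20, adjusted p = 0.0448) and did not pass in LTR (0.37 ± 0.20, adjusted p = 0.169). In NF1 both of these calls were also lost with only the 6 libraries compared (0.0720 and 0.0729), under both filter alternatives and with DESeq2 size factors. They were lost without any 1 of several libraries, from 0.0531 without LTR 1 to 0.163 without NF1 3 for Eed and from 0.0589 without LTR 3 to 0.162 without NF1 1 for Ezh2. Without NSC 1 the counts were 2 higher and 1 lower in LTR, and 1 higher and 0 lower in NF1. No count of Ifng was seen in any library.

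Other genes that interferon raises were lower more often than higher. Of 36 listed, 28 were tested: 1 was higher and 11 lower in LTR (median -0.67), and 0 were higher and 8 lower in the libraries labelled NF1 (median -0.97, with 0 higher and 12 lower by DESeq2). By edgeR 14.9% of all tested genes were higher and 20.9% lower in LTR, and 10.1% and 13.1% in NF1. By edgeR 12 and 13 of the 28 had an unadjusted p under 0.05. The counts of lower genes fell to 7 without LTR 2 and to 2 without NF1 1, where Gbp7 and Gbp3 no longer passed (adjusted p = 0.0701 and 0.0609). Parp14 measured 15.8, 5.99 and 15.4 CPM in NSC 1, 3 and 5, 0.623, 0.343 and 0.687 in LTR 1, 2 and 3, and 0.811, 1.86 and 1.13 in NF1 1, 2 and 3. Its tumour libraries all lay below NSC (-4.47 ± 0.57, adjusted p = 0.00128 in LTR; -3.29 ± 0.53, adjusted p = 0.00384 in NF1). The guanylate-binding protein genes Gbp7 (-4.07 ± 0.70, adjusted p = 0.00357; -2.60 ± 0.65, adjusted p = 0.0213) and Gbp3 (-3.28 ± 0.64, adjusted p = 0.00567; -2.69 ± 0.62, adjusted p = 0.0154) were lower in LTR and NF1 in turn. Usp18, which restrains type I interferon receptor signalling, was the gene higher in LTR (1.89 ± 0.44, adjusted p = 0.0113), and was named after its value was seen.

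Of 14 ligands of natural killer cells and checkpoints, 9 were tested, with 0 higher and 1 lower in each line by edgeR. DESeq2 called 0 of them higher in LTR and 1 in NF1, and 1 gene in LTR and 4 in NF1 had an unadjusted p under 0.05. By edgeR over all tested genes, 14.9% were higher and 20.9% lower in LTR, and 10.1% and 13.1% in NF1. Cd47, the signal that holds off phagocytes, measured 93.4 to 106 CPM in NSC, 30.6 to 52.2 in LTR (-1.38 ± 0.23, adjusted p = 0.00316) and 37.8 to 48.4 in NF1 (-1.29 ± 0.23, adjusted p = 0.00566). Pvr, which engages receptors of natural killer cells, did not pass (0.63 ± 0.47, adjusted p = 0.318 in LTR; 1.29 ± 0.48, adjusted p = 0.0790 in NF1), but did without NSC 3 (1.57, adjusted p = 0.00982; 2.19, adjusted p = 0.00440). Of 10 class II genes, 2 were tested. H2-Eb1 was called lower in both lines, at 0.642 CPM in NSC, 0.0735 in LTR and 0.0213 in NF1. It passed the low-count filter only through NSC, and 3 counts equal 0.0876 to 0.105 CPM in a tumour library. By edgeR its LTR call was lost without any 1 NSC library, LTR 1, LTR 3 or NF1 1 (adjusted p = 0.0529 to 0.160). Its NF1 call was lost without NSC 1, NSC 5, NF1 1 or NF1 3 (0.0524 to 0.0863). Leaving out single libraries moved the count of lower class II genes between 0 and 4 in each line, the 4 being without NF1 2.

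**Figure D5:**
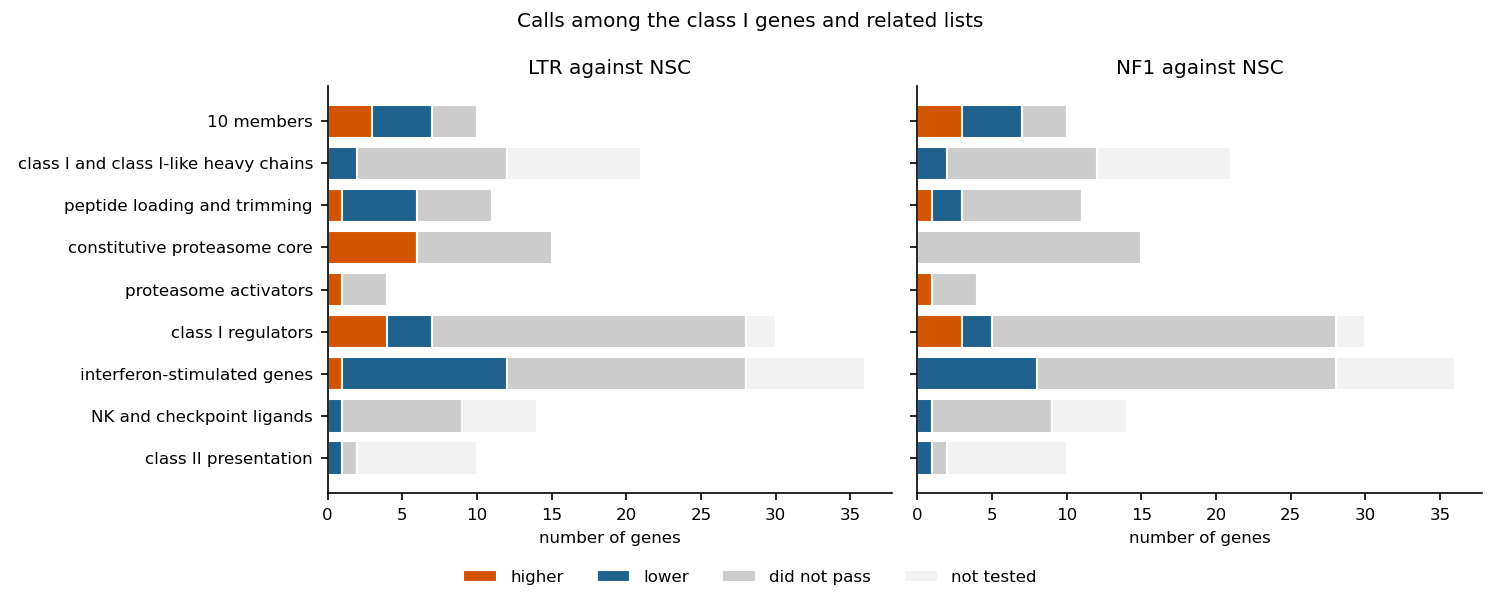
Number of genes higher, lower, not past the threshold and not tested, for the 10 members and 8 related lists, in LTR (left) and the libraries labelled NF1 (right), each against NSC. The members show 3 higher and 4 lower in both panels, and interferon-stimulated genes 11 and 8 lower.

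Markers of other cells that carry class I were read beside these results. Of 14 microglia and myeloid markers, 4 were tested, with 2 higher and 1 lower in each line, and their summed level was 4.18 to 11.0 CPM in NSC, from 4.39 to 10.5 in LTR and from 7.82 to 24.8 in NF1. Laptm5 was higher in both, Tmem119 in LTR and Cd68 in NF1, and P2ry12 was lower in both. The Laptm5 calls were lost without NSC 1 (adjusted p = 0.0574 in LTR and 0.109 in NF1) or NSC 5 (0.0581 and 0.108), and in NF1 without NF1 1 or NF1 3 (0.0870 and 0.0739). That of Tmem119 was lost without NSC 1 (0.0777) or LTR 2 (0.0646), and that of Cd68 without NSC 1, 3 or 5 (0.111, 0.0714 and 0.0743). P2ry12 in NF1 was lost with only the 6 libraries compared and without any 1 library other than NF1 2 (0.0522 to 0.104). Tyrobp, Cx3cr1, C1qa, C1qb and C1qc had no count in any LTR or NF1 library. Lymphocyte markers summed to at most 0.291 CPM in any library, with Cd3e, Cd3g, Nkg7 and Ms4a1 at 0 counts throughout. Endothelial markers summed to 7.27 to 8.83 CPM in NSC, from 29.4 to 39.0 in LTR and from 24.5 to 163 in NF1, with Cldn5 at 0 throughout. Of 5 tested, 2 were higher (Flt1 and Cdh5) and 1 lower (Vwf) in each line. The Cdh5 calls were lost without NSC 1 (adjusted p = 0.0739 in LTR and 0.0579 in NF1), and in LTR without LTR 3 (0.0502). That of Vwf in NF1 was lost without any 1 library other than NF1 2 (0.0532 to 0.147). Mural cell and fibroblast markers summed to 209 to 1953 CPM in NSC, from 19.5 to 156 in LTR and from 7.65 to 41.7 in NF1, with 4 of 5 tested lower in each line and Col3a1 higher in LTR (66.3 CPM against 1.03 in NSC). Beside these marker counts, 14.9% of all tested genes were higher and 20.9% lower in LTR, and 10.1% and 13.1% in NF1. The part of any of these cells in the class I differences was not tested.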

How the data were processed

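The authors deposited a raw count for each gene in each library. The submitters' processing notes name GRCm38 and mm10 with HTSeq, STAR 2.5.2a and DESeq2 1.8.2. No source used here gives the annotation release, strand setting or handling of multiply mapped reads. Per the labels' protocols, RNA was purified with an RNAeasy Plus kit and libraries made with the NEBNext Ultra RNA kit.

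The analysis used edgeR 4.0.16 in R 4.3.3: 1 model of 3 groups, 9 libraries, TMM scaling, filterByExpr (minimum count 10, 15696 genes), quasi-likelihood F tests with Benjamini-Hochberg adjustment over all genes tested, called under 0.05. A fold change carries a prior count of 0.125, and its SE was derived from the F statistic. Subunit ratios (0.5 added to each count) were compared by exact permutation tests in SciPy 1.17.1. Exon lengths and coordinates are from GENCODE M21, with 47310 of 47729 identifiers matched. No libraries were copies of each other. All 10 members were named, and of each list up to 4 called genes by smallest adjusted p, 1 gene not called (that of highest level), and Psmb5, Psmb6, Psmb7, Irf1, Rfx5 and Ezh2, while 1 gene that this rule names is not reported here. Pax6, Col3a1, Usp18, Vps52, H2-Ke6 and Gm19412 were named after their values were seen. The members and the 13 lists were chosen with earlier results of these data known. Alternatives were DESeq2 1.42.0, other scalings and filters, only the 6 libraries compared, the replicate block and leaving out libraries.

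In simulated counts, 200 genes were changed per comparison, 100 by 4-fold and 100 by 2-fold. Recovery of 4-fold changes was 49% (LTR against NSC), 45% (NF1 against NSC) and 41% (NF1 against LTR). Recovery of 2-fold changes was 0%, 0% and 1% in that order. In the data, 35.9% and 23.1% of all tested genes were called in LTR and NF1 against NSC, which makes the adjusted threshold less strict. The simulation therefore does not give the recovery in the comparisons with NSC.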

Additional observations from a re-analysis of the deposited data

How the results depend on the processing

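The counts of 3 higher and 4 lower members held under all 17 alternatives in both comparisons with NSC, except that the filter of 10 CPM left 2 higher and 3 lower (Nlrc5, Psmb8 and Psmb9 were not tested) and that Tapbp in NF1 was lost without NSC 1, NSC 5 or NF1 1. Of member values, 477 kept direction and side of the threshold, 3 weakened and 20, none of them called, changed sign. In deviations from group means over all genes, same-numbered libraries of LTR and NF1 correlated at 0.121, -0.0286 and -0.185. NSC 1 correlated at 0.0925 with LTR 1 and -0.0759 with NF1 1, and NSC 3 at -0.0514 with LTR 3 and 0.0382 with NF1 3. These values cannot tell whether libraries of the same number share an origin or handling. The replicate block gave 3 higher and 4 lower members in each line, and moved the genes called higher among all genes from 2346 to 1026 in LTR and from 1578 to 546 in NF1. With it, values that were not called changed sign: Psmb9 to -0.0066 (NF1 against LTR), and in LTR against NSC Psmb10 to -0.12, Calr to -0.19 and Rfx5 to 0.016. Among genes named in the report, it ended the calls of Psma1, Psme3, H2-T22, Socs1 (adjusted p = 0.0561), Eed, Laptm5, Tmem119, Usp18, Vps52 and Pax6 in LTR, and of Lnpep, Pdia3, Psme4, H2-T22, Eed, Ezh2, Laptm5, Cd68, Vps52 and Trp53 in NF1. It also ended that of Vwf in NF1, which was lost as well with only the 6 libraries compared, without the low-count filter and by DESeq2. Besides the block and left-out libraries, calls were lost with only the 6 libraries compared (H2-T22, Eed, Ezh2, P2ry12, Cd68 and Vps52 in NF1), without the low-count filter (Psme3 and Pax6 in LTR; Eed, Ezh2, Vps52 and Gm19412 in NF1), with the 10 CPM filter (Pax6 in LTR; Psme4, Eed and Ezh2 in NF1), with library totals (Pax6 in LTR; Psme4 and Ezh2 in NF1), with DESeq2 size factors (Eed and Ezh2 in NF1) and by DESeq2 (H2-Eb1 in LTR).

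Other sign changes of values that were not called were Tap1 at -0.0095 with library totals (NF1 against LTR), and in NF1 against NSC Irf1 at -0.018 with library totals and -0.017 with the 10 CPM filter, and Psmb5 at 0.073 with 6 libraries. Without both NF1 2 and NSC 3, H2-K1 was 0.066, Tap2 -0.64 and Psmb8 -0.59 in NF1 against LTR, and Psmb10 0.0031 and Psmb5 0.88 in NF1 against NSC. Leaving out single libraries, NF1 against LTR ran from -0.069 to 0.47 for H2-D1, -0.18 to 0.070 for H2-K1, -0.30 to 0.34 for Tap1, -0.64 to 0.61 for Tap2, -0.58 to 0.60 for Psmb8, -0.74 to 0.70 for Psmb9 and -0.95 to 0.075 for Psmb10. The log2 ratios there ran from -0.52 to 0.72 (Psmb8 over Psmb5), -0.60 to 0.84 (Psmb9 over Psmb6) and -0.35 to 0.062 (Psmb10 over Psmb7). LTR against NSC ran from -0.28 to 0.47 for Psmb10, -0.050 to 0.29 for Calr, -0.041 to 1.01 for Psmb5 and -0.29 to 0.17 for Rfx5. NF1 against NSC ran from -1.58 to 0.052 for H2-DMa, -3.15 to 0.19 for Kdr, -1.42 to 0.015 for Nes, -0.33 to 0.74 for Psmb5 and -0.13 to 0.37 for Irf1. The cause of these changes was not tested.

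Counts over all genes moved by over 1.5 times in several settings. The 10 CPM filter, with fewer genes tested, gave 2133 lower in LTR (3288 otherwise), and 941 higher and 1162 lower in NF1 (1578 and 2053). Leaving out single libraries gave 1077 (NSC 1) and 1179 (NSC 5) higher and 1963 lower (LTR 3) in LTR, and 598 to 2898 higher and 1085 to 4002 lower in NF1, the top values without NF1 2. Without both NF1 2 and NSC 3, 3693 were higher in LTR, and 3387 higher and 4098 lower in NF1. NF1 against LTR, with 0 by edgeR and 1596 at an unadjusted p under 0.05, gave 195 higher and 133 lower by DESeq2, 29 and 23 without the filter, 7 and 27 without NF1 2, 1 lower without NSC 3, and 28 and 76 without both. Depth limits Psmb8 and Psmb9, at 2 to 30 counts in a tumour library. The median difference over all genes moved by at most 0.13 (log2) from the reported fit under any setting.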
